A study of Mus musculus with 26 samples.

Results

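The genes described here are 38 interferon-stimulated genes, listed by symbol, out of 39017 genes in each of the deposited tables for the mouse epididymal fat pad. All 38 were found by an exact match of the symbol in both tables, 1 row each, and all 38 passed the filter on low counts in every comparison. They were grouped by role into 9 sets. The mice were male wild type C57BL/6J animals that started their diets at 9 to 10 weeks of age. Lean mice (LFD) ate a 10% fat diet for 12 weeks. Obese mice (HFD) ate a 60% fat diet for 12 weeks. Formerly obese mice (SW) ate the 60% fat diet for 9 weeks and then the 10% fat diet for 3 weeks. The fat was digested with collagenase and spun into floating adipocytes and pelleted stromal vascular cells (SVC), the mixed immune, endothelial and progenitor cells of the tissue, and polyA RNA was sequenced from both. Red blood cells were lysed in the SVC fraction only. Hemoglobin genes took 0.287% to 5.15% of the counts in the SVC libraries and 0.0614% to 0.322% in the adipocyte libraries. Adipocytes had 3 libraries per diet. SVC had 1 LFD, 2 HFD and 3 SW libraries with a column whose name gave its group, so SVC values of LFD are given without a test. The labels do not say whether a library came from 1 mouse or from several, so the p-values measure the spread between libraries, which may in part be technical.

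Interferons are secreted proteins that warn cells of virus. Type I interferons bind the receptor pair Ifnar1 and Ifnar2, whose kinases Jak1 and Tyk2 switch on the factor ISGF3, which contains Stat2 and Irf9 and binds the interferon-stimulated response element in front of antiviral genes. Interferon gamma signals through its own receptor to gamma-activated sites and drives guanylate-binding and immunity-related GTPases more strongly. In fat, macrophages, dendritic cells, T cells and adipocytes can all express these genes, and in bulk RNA from a fraction, fewer cells of a type and less RNA per cell cannot be told apart.

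The promoters of 28 of the 38 genes were found in the RefSeq table (mouse GRCm38.p6), as 31 windows of the 250 bases before a start site. The core of the response element was searched as GAAA, any 2 bases and GAAA again on both strands, so that the other strand reads TTTC, any 2 bases and TTTC. It was found in 12 of the 28 genes (42.9%), against 3.46% of the 27025 genes in the table. The core of the gamma-activated site, TTCNNNGAA, was found in 5 of the 28 (17.9%), against 8.13% of all genes. The list was made of interferon-stimulated genes, so these shares describe the list and are not a result of the diets. The windows of 6 genes are shown because their genes carry the diet results below: Isg15, Ifit1, Bst2 and Gbp2 fell in HFD adipocytes, and Oas1a and Oasl1 rose. The windows read 5′ to 3′ on the gene's strand, and capitals mark every match of the response element core, overlapping matches run together.
Isg15, chr4:156200819-156201068, minus strand: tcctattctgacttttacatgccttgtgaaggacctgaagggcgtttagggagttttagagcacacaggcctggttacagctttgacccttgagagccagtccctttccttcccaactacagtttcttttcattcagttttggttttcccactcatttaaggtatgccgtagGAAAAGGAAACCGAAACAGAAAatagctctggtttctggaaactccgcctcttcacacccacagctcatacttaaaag
Ifit1, chr19:34640639-34640888, plus strand: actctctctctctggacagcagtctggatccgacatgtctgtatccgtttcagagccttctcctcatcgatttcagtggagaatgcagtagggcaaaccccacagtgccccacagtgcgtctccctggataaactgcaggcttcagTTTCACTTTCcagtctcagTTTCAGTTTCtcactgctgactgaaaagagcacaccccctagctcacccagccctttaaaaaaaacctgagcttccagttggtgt
Bst2, chr8:71537473-71537722, minus strand: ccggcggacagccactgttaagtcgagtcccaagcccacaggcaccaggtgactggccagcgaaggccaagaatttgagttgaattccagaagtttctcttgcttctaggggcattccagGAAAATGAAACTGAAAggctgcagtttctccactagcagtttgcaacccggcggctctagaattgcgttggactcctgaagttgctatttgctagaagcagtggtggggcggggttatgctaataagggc
Gbp2, chr3:142620413-142620662, plus strand: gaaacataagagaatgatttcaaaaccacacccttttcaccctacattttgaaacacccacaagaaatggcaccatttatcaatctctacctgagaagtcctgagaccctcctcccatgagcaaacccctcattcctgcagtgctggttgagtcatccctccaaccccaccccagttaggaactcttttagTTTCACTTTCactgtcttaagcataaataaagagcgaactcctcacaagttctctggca
Oas1a, chr5:120907526-120907775, minus strand: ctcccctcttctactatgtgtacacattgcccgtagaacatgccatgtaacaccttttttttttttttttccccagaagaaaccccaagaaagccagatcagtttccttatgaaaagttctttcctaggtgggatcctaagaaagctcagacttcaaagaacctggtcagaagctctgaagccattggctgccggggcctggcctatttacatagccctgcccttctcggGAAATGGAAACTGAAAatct
Oasl1, chr5:114922990-114923239, plus strand: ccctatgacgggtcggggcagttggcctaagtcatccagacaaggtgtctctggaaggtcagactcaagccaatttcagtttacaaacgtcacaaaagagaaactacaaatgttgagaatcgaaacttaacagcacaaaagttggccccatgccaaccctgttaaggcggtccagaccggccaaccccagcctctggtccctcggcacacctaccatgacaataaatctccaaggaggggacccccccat
A match is a run of letters and not a measured site, and the Oasl1 window held none. The authors' notes name the older mouse build mm9, and the coordinates here are those of GRCm38.p6.

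The library totals ran from 5781902 to 23725647 estimated counts. Levels are given as CPM, the counts scaled to a common library size with TMM factors, and comparisons as log2 fold changes with a standard error (SE) from edgeR's quasi-likelihood test. A gene is called when its p adjusted by Benjamini-Hochberg over all genes tested is under 0.05. The adipocyte fraction carried its own markers: the summed CPM of 8 adipocyte markers was 11549 to 40461 there and 604 to 1264 in SVC. It also held other cells, and their share moved with diet. The summed CPM of 11 macrophage markers was 620 to 1029 in LFD adipocytes, 7053 to 8236 in HFD and 5014 to 7255 in SW, as the plot of marker sums shows. The 2 SVC libraries from HFD were unlike. Mitochondrial genes took 6.34% of the counts in library 212 and 33.5% in library 411, and hemoglobin genes 0.287% and 3.09%. The TMM factors of the SVC fit were 1.32 in library 212 and 0.814 in library 411. Results that rest on these 2 libraries are therefore also given without each.

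**Figure D1:**
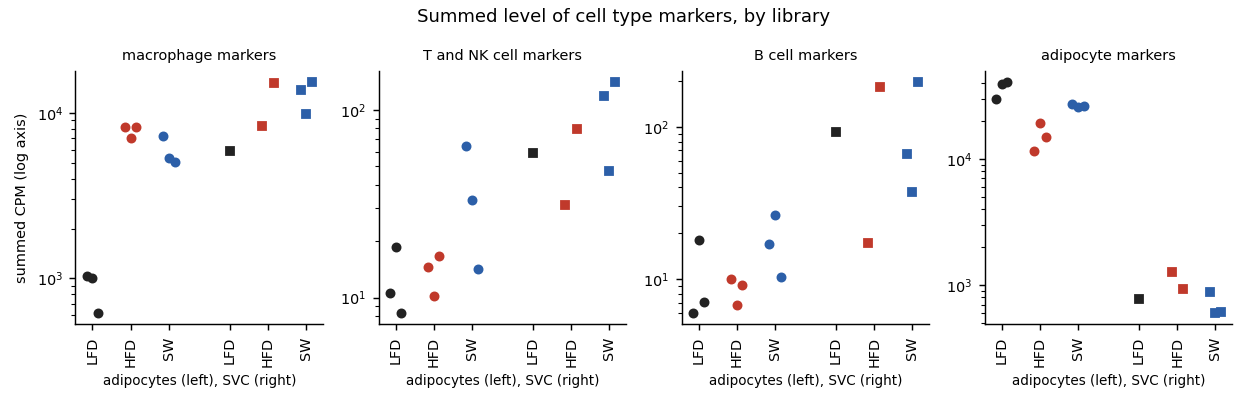
Summed CPM of 4 lists of cell type markers in each library (points: adipocytes; squares: SVC; log axes, 1 per list), with the diets on the x axis. Macrophage markers are at or under 1029 in all LFD adipocyte libraries and at or over 5014 in all HFD and SW ones, and T and NK cell markers reach 64.4 in SW library 407.

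In adipocytes, obesity moved the family in both directions. Of the 38 genes, 16 fell and 7 rose in HFD against LFD, beside a background in which 25% of all 14461 genes tested fell and 26.5% rose. In all, 60.5% of the members and 51.5% of all genes were called. The median log2 fold change of the members was -0.29, and that of all genes was -0.03. The genes that fell included Bst2 (2.91-fold), Ifit1 (2.26-fold), Isg15 (2.21-fold), Gbp3 (2.13-fold) and Ifi27 (1.84-fold). The genes that rose were Oasl1 (3.13-fold), Oas1a (2.53-fold), Oas3 (2.34-fold), Samd9l (1.71-fold), Eif2ak2 (1.56-fold), Trim25 (1.53-fold) and Dhx58 (1.48-fold). After the switch back to the low fat diet, 11 members rose and 1 fell against HFD, where 15.6% of all genes rose and 15.9% fell. Of all genes tested, 31.4% were called in SW against HFD, as were 31.6% of the members. Against LFD, 4 members were higher in SW and 2 lower, where 10.9% and 6.18% of all genes did, so that 15.8% of the members and 17.1% of all genes were called. The comparisons share libraries: the HFD libraries enter both of the first, and a low HFD value makes one negative and the other positive. Each is therefore given with its own values below.

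**Figure D2:**
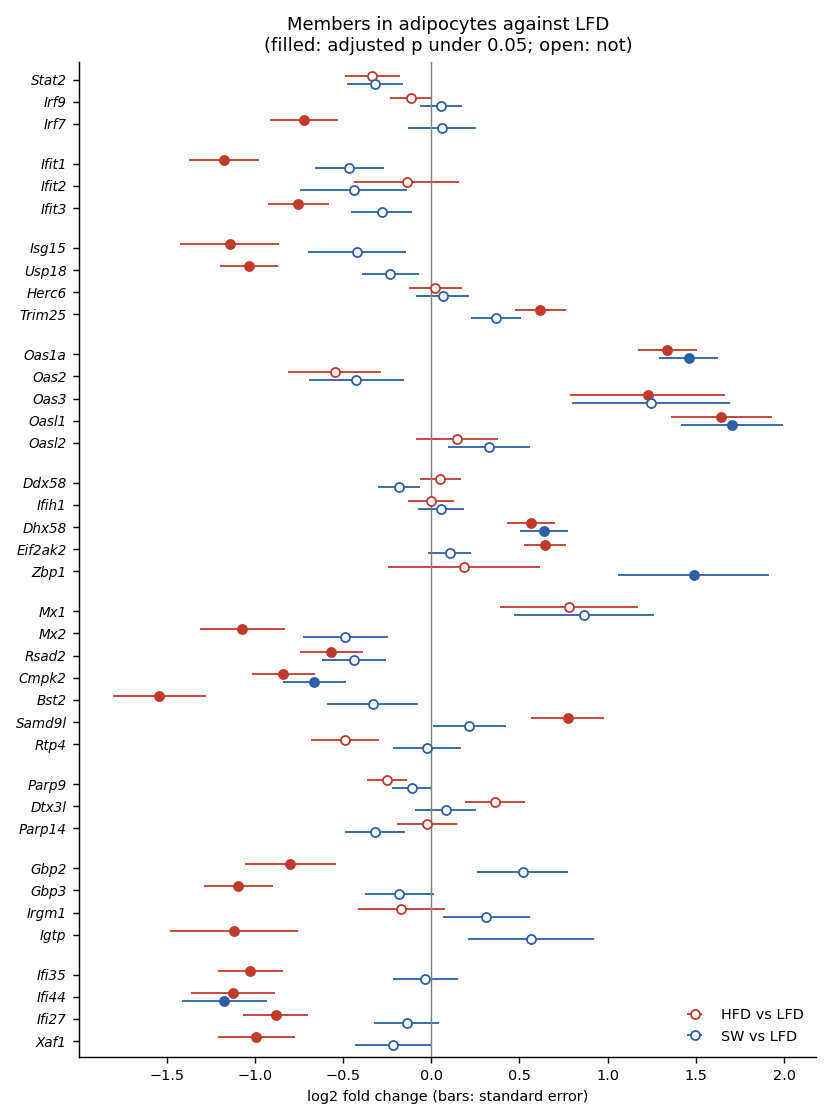
Log2 fold changes of the 38 members in adipocytes, HFD against LFD in red and SW against LFD in blue, with the SE as bars and the members ordered by role (filled points: adjusted p under 0.05). Red points lie furthest left for Bst2 at -1.54 and furthest right for Oasl1 at 1.64, and the blue points of Oas1a, Oasl1, Dhx58 and Zbp1 are filled on the right.

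The transcription factors of the pathway were called for 1 of 3 genes. Irf7, which amplifies type I interferon production, had 40.4, 39.6 and 33.8 CPM in LFD, 22.5, 24.5 and 22.0 in HFD and 53.3, 36.6 and 29.1 in SW. Every HFD library lay below every library of the other diets. Irf7 fell by 0.72 on the log2 scale in HFD (SE 0.20, adjusted p = 0.0113) and rose by 0.78 in SW against HFD (SE 0.19, adjusted p = 0.0163). Irf9, the DNA-binding subunit of ISGF3, had 35.0, 34.9 and 38 CPM in LFD, 34.4, 32.1 and 33.1 in HFD and 42.4, 37.9 and 32.0 in SW. It differed by -0.12 (SE 0.12, adjusted p = 0.439) between HFD and LFD, within the spread of the test. Stat2, the other ISGF3 subunit of the list, had a mean of 31.2 ± 3.70 (SD, n = 3) in LFD, 24.7 ± 0.399 in HFD and 25.0 ± 5.14 in SW, and was not called (adjusted p = 0.098 in HFD against LFD). Irf1, a factor induced by interferon gamma, fell by 0.81 in HFD (SE 0.18, adjusted p = 0.00387) and rose by 0.70 in SW (SE 0.18, adjusted p = 0.0174).

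The IFIT proteins bind foreign RNA and block its translation, and 2 of the 3 fell in HFD. Ifit1 had 24.1, 22.2 and 23.6 CPM in LFD, 10.3, 11.0 and 9.61 in HFD and 22.4, 16.5 and 11.9 in SW. The HFD libraries lay below all others, and SW library 409 came nearest to them. Ifit1 fell by 1.17 on the log2 scale (SE 0.20, adjusted p = 0.00092) and rose by 0.71 in SW (SE 0.20, adjusted p = 0.0241). Ifit3 had 50.6, 45.1 and 43.8 CPM in LFD, 27.7, 29.3 and 25.6 in HFD and 47.3, 39.7 and 27.9 in SW. LFD and HFD did not overlap, and SW library 409 lay within the HFD range. Ifit3 fell by 0.75 (SE 0.17, adjusted p = 0.00498), and its difference of 0.47 in SW against HFD was not called (SE 0.17, adjusted p = 0.0592). Ifit2 had 23.2, 15.2 and 14.0 CPM in LFD, 20.1, 12.4 and 14.8 in HFD and 12.4, 17.6 and 8.01 in SW, with all diets overlapping and no call. The 3 genes lie in the same region of chromosome 19 and belong to 1 gene family. Where RSEM splits reads among like copies of the family, a value is less certain than that of a gene with no near copy.

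ISG15 is a ubiquitin-like tag that interferon puts on other proteins, Herc6 is its ligase in mice, Usp18 removes it and also blocks the type I receptor, and Trim25 is a ubiquitin ligase that activates the RNA sensor RIG-I. Isg15 had 26.8, 31.5 and 33.5 CPM in LFD, 14.4, 15.9 and 11.4 in HFD and 35.7, 15.9 and 17.7 in SW. LFD lay above HFD in every library, while SW was spread over both. Isg15 fell by 1.14 on the log2 scale (SE 0.28, adjusted p = 0.00691) and its difference of 0.72 in SW against HFD was not called (SE 0.28, adjusted p = 0.0717). Usp18 moved in parallel at lower levels, with a mean of 11.4 ± 1.71 CPM in LFD, 5.52 ± 0.502 in HFD and 9.59 ± 0.901 in SW (SD, n = 3 each). It fell by 1.03 in HFD (SE 0.16, adjusted p = 0.000612) and rose by 0.80 in SW (SE 0.16, adjusted p = 0.0085), a rise that was not called after a correction for transcript length. Trim25 went the other way in HFD, with 77.7, 69.7 and 72.6 CPM in LFD, 122.4, 96.6 and 118.5 in HFD and 103.8, 102.4 and 77.6 in SW. Its HFD libraries lay above all LFD libraries, and it rose by 0.62 (SE 0.14, adjusted p = 0.00529), while SW overlapped both other diets and was not called against either. Herc6 had 17.6, 16.0 and 14.9 CPM in LFD, 18.9, 15.2 and 15.2 in HFD and 16.3, 19.6 and 14.7 in SW, ranges that overlap throughout.

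The 2'-5'-oligoadenylate synthetases sense double-stranded RNA and switch on the nuclease RNase L, and their relatives Oasl1 and Oasl2 carry ubiquitin-like domains. This was the set with the most genes higher in HFD, 3 of 5, and none of the 5 was called lower or called in SW against HFD (0 of 5 also at an unadjusted p under 0.05). Oas1a had 13.5, 14.2 and 11.3 CPM in LFD, 33.0, 33.3 and 32.9 in HFD and 45.4, 33.2 and 29.5 in SW. All HFD and SW libraries lay above all LFD libraries. Oas1a rose by 1.34 on the log2 scale in HFD (SE 0.17, adjusted p = 0.000153) and was still higher by 1.46 in SW against LFD (SE 0.17, adjusted p = 0.000284). Oasl1, which represses Irf7 translation, had 3.17, 3.97 and 2.77 CPM in LFD, 10.8, 10.0 and 11.0 in HFD and 16.1, 10.3 and 7.15 in SW. Again no HFD or SW library came down to the LFD range. Oasl1 rose by 1.64 in HFD (SE 0.28, adjusted p = 0.00106) and was higher by 1.71 in SW against LFD (SE 0.29, adjusted p = 0.00275). Oas3 rose by 1.23 in HFD at a low level (1.73 ± 0.568 CPM in LFD and 3.96 ± 0.647 in HFD, SD, n = 3 each, adjusted p = 0.0389), and the call was lost when any of 5 libraries was left out. Oasl2 had 27.3, 27.0 and 19.9 CPM in LFD, 33.0, 23.4 and 26.1 in HFD and 34.9, 38 and 20.6 in SW, with overlap in every pair of diets. Oas2 had means of 11.0 ± 3.9 CPM in LFD, 7.52 ± 1.2 in HFD and 8.17 ± 1.70 in SW and was not called. The OAS genes sit together on chromosome 5, Oas1a has near-identical neighbours, and Oas1g, 1 of these, was also higher in SW against LFD, by 2.0 (SE 0.34, adjusted p = 0.00273).

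Among the nucleic acid sensors, 2 of 5 rose in HFD and none fell. Ddx58 (RIG-I) and Ifih1 (MDA5) detect viral RNA in the cytosol and start interferon production. Ddx58 had 30.4, 29.3 and 28.6 CPM in LFD, 33.7, 29.0 and 29.0 in HFD and 25.3, 28.8 and 23.7 in SW. Ifih1 had 25.7, 26.6 and 28.6 CPM in LFD, 30.7, 26.1 and 24.1 in HFD and 26.1, 31.7 and 26.1 in SW. Neither was called in any adipocyte diet comparison. Dhx58 (LGP2), which tunes those 2 sensors, rose by 0.57 in HFD (SE 0.13, adjusted p = 0.00579) and was higher by 0.64 in SW against LFD (SE 0.14, adjusted p = 0.00941). Eif2ak2 (PKR), the kinase that stops translation on double-stranded RNA, had 19.7, 16.8 and 16.7 CPM in LFD, 30.7, 25.5 and 26.7 in HFD and 19.9, 18.7 and 18.5 in SW. The HFD libraries lay above all others, and the SW libraries lay within or next to the LFD range. Eif2ak2 rose by 0.64 in HFD (SE 0.12, adjusted p = 0.00165) and was the 1 member that fell in SW against HFD, by 0.54 (SE 0.12, adjusted p = 0.011). Zbp1, a sensor of Z-form nucleic acids that can trigger necroptosis, had 7.29, 8.36 and 8.17 CPM in LFD, 8.27, 10.4 and 8.49 in HFD and 40.4, 18.5 and 9.23 in SW. Its 3 SW libraries differed among themselves more than LFD and HFD did. Zbp1 rose by 1.30 against HFD (SE 0.41, adjusted p = 0.0367) and by 1.49 against LFD (SE 0.43, adjusted p = 0.039), and both calls were lost without SW library 407, the highest. Leaving out 1 library ended the call against HFD in 5 of 9 cases and against LFD in 8 of 9.

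Of the 7 other antiviral effectors, 4 fell and 1 rose in HFD. Bst2 (tetherin), a membrane protein that holds budding virus on the cell, had 199.8, 232.8 and 242.5 CPM in LFD, 84.2, 80.4 and 67.5 in HFD and 272.8, 132.8 and 131.7 in SW. The HFD libraries were all under the lowest of the others, and 2 of the 3 SW libraries lay between HFD and LFD. Bst2 fell by 1.54 on the log2 scale (SE 0.26, adjusted p = 0.00103), the largest fall of any member in this comparison, and rose by 1.21 in SW (SE 0.26, adjusted p = 0.0107), a rise of 0.45 and no call after correction for length. Rsad2 (viperin), which makes a chain-terminating nucleotide, had 43.8, 46.1 and 34.0 CPM in LFD, 35.0, 23.3 and 25.7 in HFD and 28.7, 34.9 and 28 in SW. LFD library 406 lay below HFD library 401, so the diets overlapped, and the fall of 0.57 (SE 0.18, adjusted p = 0.0227) was lost when any of 4 libraries was left out. Cmpk2, the neighbour of Rsad2 on chromosome 12 that supplies it with substrate, fell by 0.84 in HFD (SE 0.18, adjusted p = 0.00345) and was still lower by 0.66 in SW against LFD (SE 0.18, adjusted p = 0.0309), a call that was lost when any of 4 libraries was left out. Samd9l, an antiviral and growth-restricting protein, rose, with 36.9, 28.9 and 27.2 CPM in LFD, 59.4, 47.0 and 52.3 in HFD and 24.6, 44.3 and 38.3 in SW. Its HFD libraries lay above all others, and it rose by 0.77 (SE 0.21, adjusted p = 0.0108), while the difference of -0.56 in SW against HFD was not called (SE 0.20, adjusted p = 0.0601). The dynamin-like GTPase Mx2 fell by 1.07 (SE 0.24, adjusted p = 0.00454) from a level of 3.91 ± 0.507 CPM, and Mx1, disrupted in many laboratory mouse strains, stayed between 0.923 and 3.36 CPM in all adipocyte libraries with no call. Rtp4, a chaperone that carries receptors to the cell surface, differed by -0.49 in HFD (SE 0.19, adjusted p = 0.0562) and was not called.

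**Figure D3:**
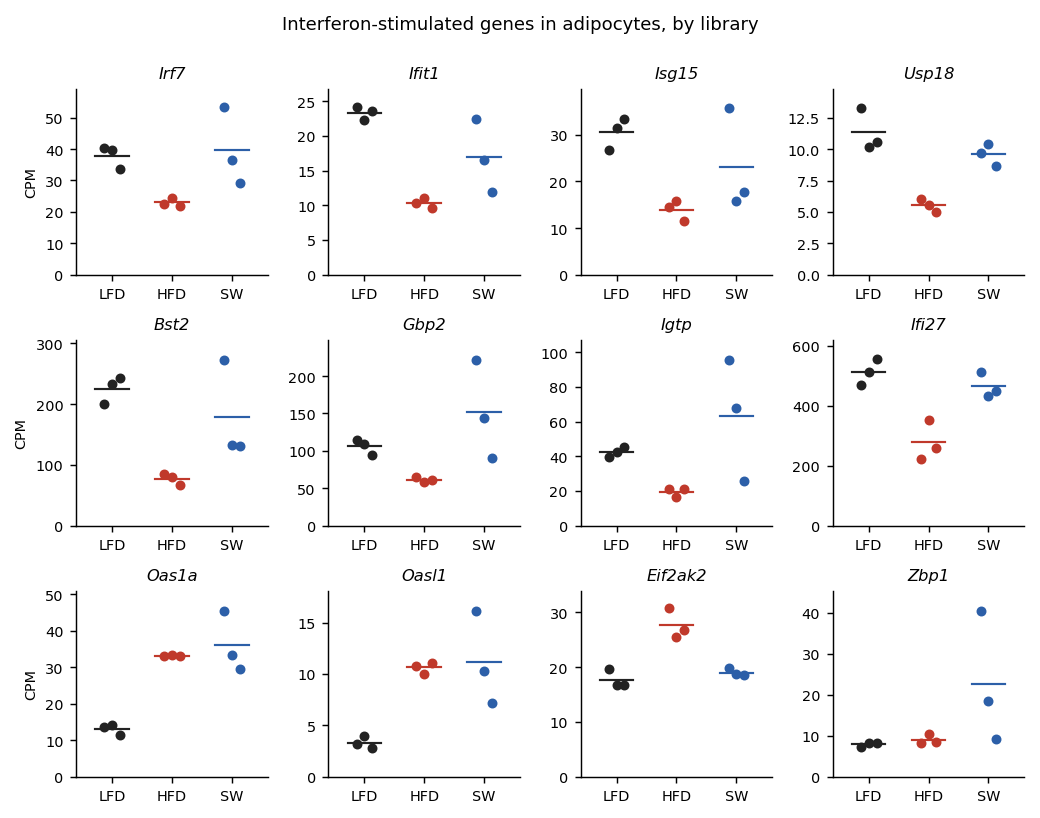
CPM of 12 members in each adipocyte library (points) with the group mean (bars), n = 3 per diet and each y axis from 0. The HFD points lie below all LFD points for the genes from Irf7 to Ifi27 and above them for Oas1a, Oasl1 and Eif2ak2, and SW library 407 is the highest SW point for Zbp1 at 40.4, Gbp2 at 222.0 and Igtp at 95.2.

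Parp9, Dtx3l and Parp14 lie next to each other on chromosome 16, and the first pair forms an ADP-ribosylating ubiquitin ligase complex. None of the 3 was called in any adipocyte diet comparison, and none had an unadjusted p under 0.05. Parp14 had 72.8, 59.3 and 53.4 CPM in LFD, 74.8, 51.8 and 55.7 in HFD and 50.5, 55.0 and 43.0 in SW. Parp9 had 66.4, 65.0 and 63.6 CPM in LFD, 50.6, 59.9 and 53.0 in HFD and 59.7, 67.3 and 53.7 in SW. Every HFD library of Parp9 lay below every LFD library, with a log2 difference of -0.25 (SE 0.11, adjusted p = 0.09). Dtx3l had means of 25.7 ± 1.18 CPM in LFD, 33.0 ± 4.49 in HFD and 27.1 ± 6.34 in SW. The gene models of Parp9 and Dtx3l overlap by 682 bases on opposite strands (chr16:35938470-35939151, GRCm38), and without a stated strand setting reads in the overlap cannot be assigned to either.

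The interferon-inducible GTPases coat and break the membranes around bacteria and parasites, and 3 of 4 fell in HFD and rose again in SW. Gbp2 had 114.5, 109.3 and 94.7 CPM in LFD, 64.8, 57.9 and 60.4 in HFD and 222.0, 143.6 and 90.9 in SW. The HFD libraries lay below all others, and SW spread from below LFD to well above it. Gbp2 fell by 0.80 on the log2 scale (SE 0.26, adjusted p = 0.0257) and rose by 1.32 in SW (SE 0.26, adjusted p = 0.00807). Igtp (Irgm3) had 39.5, 42.3 and 45.2 CPM in LFD, 21.2, 16.5 and 21 in HFD and 95.2, 67.9 and 25.8 in SW. It fell by 1.12 (SE 0.36, adjusted p = 0.0263) and rose by 1.69 in SW (SE 0.36, adjusted p = 0.0105), the largest rise of any member there, with library 409 below all LFD libraries and the other two above them. Both falls are less stable than the rises: Gbp2 and Igtp each lost the call against LFD when any of 5 libraries was left out, and neither lost the call in SW against HFD. Gbp3 fell by 1.09 (SE 0.20, adjusted p = 0.00133) and rose by 0.91 (SE 0.20, adjusted p = 0.0101). Irgm1, which keeps the other GTPases off the cell's own membranes, had means of 33.3 ± 3.03 CPM in LFD, 29.6 ± 3.62 in HFD and 41.4 ± 15.6 in SW and was not called.

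The last set holds 4 genes of other or less settled function, and all 4 fell in HFD. Ifi27, a mitochondrial and nuclear envelope protein, had 467.3, 511.7 and 557.1 CPM in LFD, 220.8, 352.7 and 259.5 in HFD and 513.6, 432.6 and 449.5 in SW. The HFD libraries lay below all others. Ifi27 fell by 0.88 on the log2 scale (SE 0.19, adjusted p = 0.00308) and rose by 0.74 in SW (SE 0.18, adjusted p = 0.0163), and after correction for length the latter was 0.16 and not called. Ifi35, which can be released as a danger signal, had 64.9, 82.8 and 74.6 CPM in LFD, 36.3, 40.4 and 32.6 in HFD and 95.5, 60.1 and 62.7 in SW. It fell by 1.03 (SE 0.18, adjusted p = 0.00134) and rose by 0.99 (SE 0.18, adjusted p = 0.00684), with HFD again apart from both other diets. Xaf1, a partner of the apoptosis inhibitor Xiap, fell by 0.99 (SE 0.22, adjusted p = 0.004) and rose by 0.77 (SE 0.22, adjusted p = 0.0249). Ifi44 behaved differently: it had 13.5, 12.5 and 10.9 CPM in LFD, 7.06, 5.38 and 4.6 in HFD and 5.99, 6.67 and 3.72 in SW. Its HFD and SW libraries overlapped and both lay below LFD, with a fall of 1.13 in HFD (SE 0.24, adjusted p = 0.00315) and of 1.17 in SW against LFD (SE 0.24, adjusted p = 0.0082). Per kilobase of the longest transcript, Ifi27 and Bst2 were the most abundant members in LFD adipocytes, at 524 ± 45.9 and 284 ± 28.2 CPM per kb (SD, n = 3), and Oas3 and Mx1 the least, at 0.367 ± 0.120 and 0.410 ± 0.119.

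Counted without a test, 9 members lay higher and 19 lower in every HFD than in every LFD adipocyte library, where 32.1% and 30.5% of all genes did. In SW against HFD these counts were 11 and 3 (23.3% and 25.2% of all genes), and in SW against LFD 4 and 3 (19.1% and 17.5%). With HFD and SW pooled against LFD, 6 members were higher and 13 lower, where 20.7% and 19.4% of all genes were, and 40.1% of all genes were called. The 6 were Oasl1, Oas1a, Oas3, Dhx58, Trim25 and Eif2ak2. The largest falls there were those of Ifi44 at -1.15 (SE 0.20, adjusted p = 0.00153), Bst2 at -0.94 (SE 0.22, adjusted p = 0.00712) and Ifit1 at -0.82 (SE 0.17, adjusted p = 0.00351). This count dropped to 8 without LFD library 405.

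The 3 SW adipocyte libraries were not alike. Library 407 was the highest of them for 23 of the 38 members and library 409 the lowest for 32. The TMM factors were 0.842 in library 407, 1.02 in 408 and 1.02 in 409. A lower factor raises every CPM of a library, and its part in the order of these libraries was not tested. The summed CPM of the members was 2220 in library 407, 1785 in 408 and 1471 in 409, beside 1840 to 1865 in LFD and 1235 to 1322 in HFD, so SW spanned the range from just above HFD to above LFD. T and NK cell markers had the same order, with summed CPM of 64.4, 33.2 and 14.2, against 8.31 to 18.5 in LFD and 10.2 to 16.7 in HFD. Of their 9 tested genes, 3 rose in SW against HFD (Cd3d, Gzma and Nkg7), where 15.6% of all genes rose. The part of T and NK cells in the rise of the interferon genes was not tested. In HFD against LFD, 6 of 8 adipocyte markers and 4 of 6 endothelial markers fell, and all 11 macrophage markers rose. Over all genes 25% fell and 26.5% rose there. In SW the macrophage sum was 5014 to 7255 CPM, against 620 to 1029 in LFD. Among the members that rose in HFD, Oas1a, Oasl1 and Dhx58 stayed above every LFD library in SW. The others, Eif2ak2, Samd9l, Trim25 and Oas3, overlapped LFD in SW. Fibroblast and progenitor markers summed to 1912 to 2809 CPM in LFD and 5217 to 7129 in HFD (3 of 7 rose and 1 fell in HFD). Mesothelial markers summed to 62.7 to 96.1 in LFD and 10.8 to 30.8 in HFD (3 of 5 fell). The part of all these cell types was not tested. Leaving out SW library 409 raised the count against LFD from 6 to 11, and leaving out HFD library 401 or 403 lowered the count in SW against HFD from 12 to 7 or 6. Irf7, Ifit1, Ifi27, Xaf1 and Zbp1 lost the call without either, and Bst2 also without 403.

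Upstream of these genes, the interferons themselves were almost not seen. Of 19 ligand genes, 17 in LFD, 15 in HFD and 15 in SW had no count in any adipocyte library. Ifnb1 had 0, 1 and 0 counts in LFD, 1, 0 and 0 in HFD and 1, 0 and 0 in SW. Ifng had 5, 3 and 1 counts in LFD, 0, 4 and 5 in HFD and 19, 10 and 3 in SW, too few for the low-count filter. A level under 3 counts, which is 0.126 to 0.488 CPM in these libraries, was not detectable, and intervals of this kind cover counting error only. Of 8 receptor and kinase genes tested, 5 rose in HFD and none fell (0 of 8), where 26.5% of all genes rose and 25% fell. The receptor and kinase genes that rose were Il10rb at 1.31 (SE 0.11, adjusted p = 1.83e-05), Jak1 at 1.03, Ifnar1 at 0.86 (SE 0.11, adjusted p = 0.000144), Tyk2 at 0.69 and Ifngr2 at 0.65. Ifnar1, Jak1, Il10rb and Jak2 fell in SW against HFD, Ifnar1 by 0.54 (SE 0.10, adjusted p = 0.00783). Ifnar2, with 98 to 132 CPM in every adipocyte library, was not called in any comparison of diets. Of 15 genes for upstream sensing and induction, 12 rose in HFD and none fell, with the endosomal sensors Tlr8 at 6.17, Tlr9 at 4.25 and Tlr7 at 3.42, their chaperone Unc93b1 at 1.95 and the kinase Ikbke at 1.84. These genes are known from myeloid cells, and the macrophage markers rose in the same libraries; their part in the rise was not tested.

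Of 8 other interferon transcription factors, 3 rose in HFD (Irf5 at 2.55, Irf8 at 1.92 and Irf2 at 0.45) and 2 fell (Irf1, given above, and Irf3 at -0.47). Among 9 negative regulators, 5 rose and 1 fell, with the phosphatase Ptpn6 at 3.11, Socs3 at 1.38 and the nuclease Isg20 at -0.94. A further list of 58 tested interferon-induced genes had 14 higher and 16 lower in HFD, where 26.5% and 25% of all genes were. Its median log2 fold change was 0.00. Slfn9 at 3.26, the lysosomal reductase Ifi30 at 2.65, the DNA sensor Aim2 at 2.35 and Slfn5 at 2.35 rose most, and the GTPase Tgtp1 fell by 2.23. In SW against HFD 20 of the 58 rose and 2 fell, with a median of 0.38, where 15.6% of all genes rose and 15.9% fell. The chemokines Cxcl9 and Cxcl10, which draw T cells and respond to interferon gamma, rose by 1.86 (SE 0.37, adjusted p = 0.00826) and 1.72 (SE 0.41, adjusted p = 0.0144), and Slfn9 fell by 3.02 and Slfn5 by 2.58. Cxcl9 followed the order of the SW libraries too, with 225.3 CPM in 407, 121.1 in 408 and 61.7 in 409, against 33.3 to 42.4 in HFD and 67.7 to 91.5 in LFD.

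Transcript length and base composition moved with the change in adipocytes. Over all genes with a length, the median log2 fold change in HFD against LFD was -0.37 in the shortest and 0.23 in the longest of 4 equal groups of transcripts. The 16 members that fell had a median length of 2496 bases, the 7 that rose 4313 and the 15 others 3869. After a correction for this trend in each library, 23 members were called: Igtp and Oas3 lost the call, and Parp9 and Stat2 gained it. With a correction for GC content the count was 24. The correction for length in SW against LFD gave 4 members higher and 4 lower in place of 4 and 2, with Bst2 and Isg15 added. In SW against HFD the trend ran the other way, from 0.47 in the shortest group to -0.32 in the longest, and the correction lowered the count from 12 to 9. Bst2 at 0.45 (adjusted p = 0.0663), Usp18 at 0.51 (adjusted p = 0.0638) and Ifi27 at 0.16 (adjusted p = 0.406) lost the call there.

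In SVC the switch of diet gave a different set of called genes. In simulated data with 200 changed genes this fit recovered 0% of 2-fold and 32% of 4-fold changes, so a gene without a call may still have moved. The real comparison called 2849 genes, and the adjusted threshold depends on how many genes change, so these shares need not hold for it. Of the 38 members, 9 fell in SW against HFD and none rose, where 11.7% of all 16319 genes fell and 5.71% rose. At an unadjusted p under 0.05 there were 17 members in either direction. Called members made up 23.7% of the list and called genes 17.5% of all. The median log2 fold change was -0.17 over the members and 0.03 over all genes. The genes that fell were Samd9l (5.30-fold), Rsad2 (4.14-fold), Eif2ak2 (4.06-fold), Parp14 (3.77-fold), Herc6 (3.68-fold), Ifit2 (3.42-fold), Parp9 (3.13-fold), Trim25 (3.05-fold) and Ifi44, with adjusted p from 0.0362 to 0.0493. Only Eif2ak2 of these was also called, and lower, in adipocytes over the same diets. Without a test, 7 members lay higher and 14 lower in every SW than in every HFD library, where 28.5% and 30% of all genes did.

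Eif2ak2 had 13.7 and 10.3 CPM in HFD, 2.68, 3.6 and 2.52 in SW and 4.71 in the LFD library. It fell by 2.02 on the log2 scale (SE 0.36, adjusted p = 0.0362). Samd9l had 30.1 and 45.6 CPM in HFD, 4.02, 8.72 and 8.54 in SW and 7.33 in LFD. It fell by 2.41 (SE 0.40, adjusted p = 0.0362), and for both genes the HFD libraries lay above all others. Parp14 had 46.6 and 27.0 CPM in HFD, 7.22, 14.5 and 7.23 in SW and 18.3 in LFD, and Parp9 had 25.6 and 15.9 in HFD, 5.05, 7.23 and 7.56 in SW and 7.33 in LFD. These neighbours fell by 1.92 (SE 0.42, adjusted p = 0.0399) and 1.65 (SE 0.34, adjusted p = 0.0381). Herc6 had 11.9 and 8.14 CPM in HFD, 2.06, 3.22 and 2.85 in SW and 3.32 in LFD. Trim25 had 164.3 and 67.0 CPM in HFD, 34.7, 45.8 and 33.2 in SW and 19.6 in LFD. Rsad2 had 16.4 and 7.73 CPM in HFD, 2.78, 3.97 and 1.86 in SW and 7.51 in LFD, and Ifit2 had 8.0 and 6.14 in HFD, 1.24, 2.98 and 1.86 in SW and 7.68 in LFD. For this pair the LFD library lay close to HFD. Ifi44 was near the limit of counting, with 2.09 and 1.31 CPM in HFD, 0.103, 0.207 and 0.329 in SW and 0.524 in LFD. The floor of 3 counts was 0.295, 0.135 and 0.296 CPM in these SW libraries, so the size of the Ifi44 fold change fitted against them depends on the prior count.

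**Figure D4:**
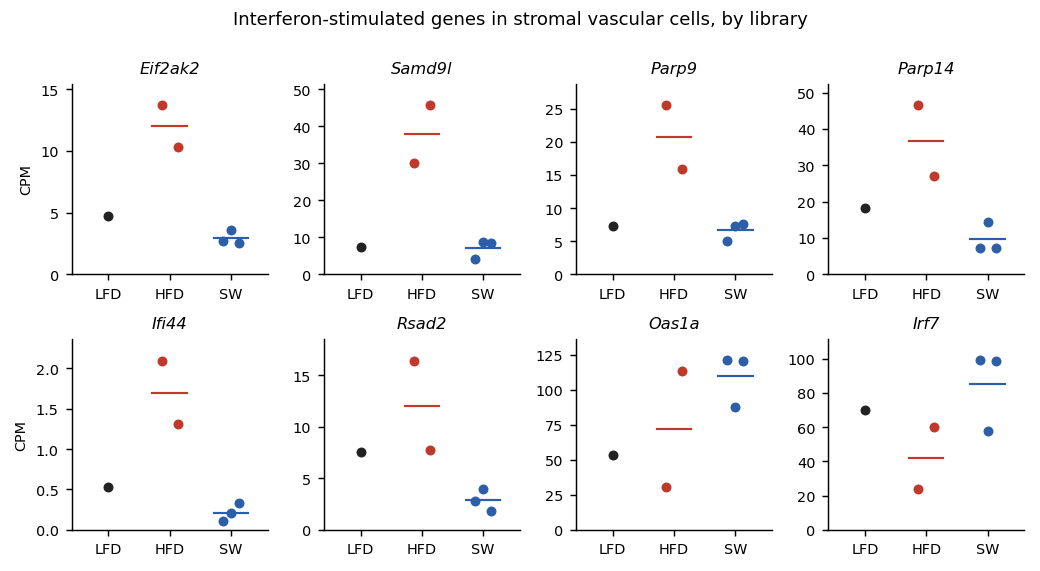
CPM of 8 members in each SVC library (points) with the mean where a diet has more than 1 library (bars), and each y axis from 0. For the first 6 genes the SW points lie below both HFD points, while Oas1a and Irf7 have SW points from 87.3 to 121.4 and from 57.8 to 99.4 beside HFD points that lie far apart.

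The other 29 members were not called in SVC. Irf7 had 23.6 and 60.0 CPM in HFD, 99.4, 57.8 and 98.5 in SW and 69.9 in LFD, and Irf9 had 35.3 and 42.9 in HFD, 60.1, 49.6 and 63.4 in SW and 45.2 in LFD. Neither was called, at 1.03 (SE 0.46, adjusted p = 0.138) and 0.56 (SE 0.22, adjusted p = 0.106). Oas1a had 30.6 and 113.1 CPM in HFD, 121.4, 87.3 and 120.5 in SW and 53.1 in LFD, a difference of 0.61 (SE 0.53, adjusted p = 0.401), with HFD library 411 inside the SW range and 212 far below it. Oasl1 had 15.1 and 21.9 CPM in HFD, 33.0, 23.2 and 31.7 in SW and 17.8 in LFD, and Oasl2 had 34.8 and 27.7 in HFD, 45.1, 37.9 and 49.7 in SW and 46.8 in LFD. In both, every SW library lay above both HFD libraries without a call. Bst2 had 75.0 and 62.6 CPM in HFD, 91.6, 59.3 and 78.4 in SW and 65.1 in LFD (log2 difference 0.15, SE 0.25, adjusted p = 0.661). Its change from HFD to SW was larger in adipocytes than in SVC by 0.95, which was not called (SE 0.38, adjusted p = 0.0798). Isg15 had 10.4 and 14.3 CPM in HFD, 17.7, 7.94 and 19.3 in SW and 6.29 in LFD. Ifit1 had 6.15 and 8.76 CPM in HFD, 3.09, 3.64 and 4.82 in SW and 4.54 in LFD, and Ifit3 had 14.0 and 9.04 in HFD, 10.9, 7.73 and 11.7 in SW and 15.4 in LFD. Ifit1 was lower in all SW than in both HFD libraries, and Ifit3 and Isg15 overlapped. Gbp2 had 28.6 and 28.3 CPM in HFD, 59.5, 30.2 and 73.4 in SW and 31.6 in LFD, and Igtp had 14.8 and 14.7 in HFD, 36.1, 16.7 and 36.7 in SW and 25.5 in LFD. SW library 413 was the lowest of its group for this pair and for 23 of the 38 members in all. Zbp1 had 7.48 and 21.5 CPM in HFD, 34.8, 15.2 and 51.8 in SW and 7.68 in LFD, so its diets overlapped. The sensor Ddx58 had 22.0 and 14.9 CPM in HFD, 13.9, 13.3 and 12.8 in SW and 21 in LFD. The sensor Ifih1 had 17.4 and 8.90 CPM in HFD, 2.06, 4.55 and 4.71 in SW and 8.91 in LFD. For both, every SW library lay below both HFD libraries, and neither was called, Ifih1 at -1.79 (SE 0.49, adjusted p = 0.0519). Ifi27 had 115.5 and 93.9 CPM in HFD, 121.0, 96.4 and 121.6 in SW and 102.9 in LFD, and Ifi35 had 31.4 and 53.9 in HFD, 71.7, 53.6 and 75.3 in SW and 80.0 in LFD.

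The fall in SVC rests on few libraries and moved with base composition. Leaving out either HFD library leaves 1, which the fit assumes to vary like the other groups. The share of all genes called without each library is not given beside the counts below, so they are not results about the members alone. Without HFD library 212 only Samd9l was called, without HFD library 411 the count was 17 (13 lower and 4 higher, the latter Irf7, Oas1a, Oas3 and Ifi35), and without any 1 of the SW libraries it was 0, with 12 to 18 members at an unadjusted p under 0.05. The 9 members that fell had a median GC content of 43.9% in their longest transcript, from 38.8% to 49.9%, and the 29 others 50.4%. Over all genes the median log2 fold change rose across 4 equal groups of genes by GC content, at -1.41, -0.39, 0.39 and 0.69. In the group with the lowest GC content 35.6% of all genes fell, and 6 of the 8 members there. With a correction for this trend in each library, 0 members and 0 of all genes were called by edgeR, and 10 members had an unadjusted p under 0.05. The fall of Trim25 was then still 1.62 (adjusted p = 0.129), and those of Herc6 and Ifit2 shrank to 0.36 and 0.52. In adipocytes the like groups had medians of -0.11, -0.07, 0.02 and 0.20, as the plot of fold change against GC content shows. Run type (paired-end or single) also differed between the SVC diets, and its part in the SVC trend was not tested.

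**Figure D5:**
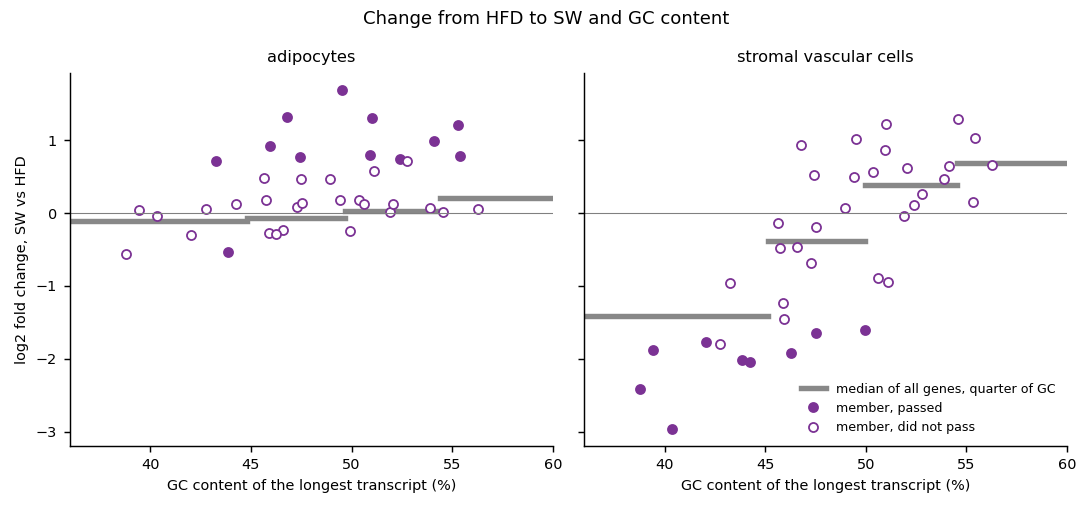
Log2 fold change in SW against HFD of the 38 members (points, filled when called) against the GC content of the longest transcript, in adipocytes on the left and SVC on the right, with grey bars for the median of all genes in each of 4 equal groups by GC content (drawn from 36% to 60%). In SVC the grey bars climb from -1.41 to 0.69 and the filled points all lie under 50% GC, and in adipocytes the bars stay between -0.11 and 0.20.

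In the rest of the pathway in SVC, calls went mostly down, as over all genes (11.7% fell and 5.71% rose in SW against HFD). Of 59 further interferon-induced genes tested, 9 fell and 2 rose in SW against HFD, with Aim2 at -2.53, Slfn8 at -2.44, Ddx60 at -2.14, Gbp4 at -2.10 and Gbp9 at -2.08 the largest. Jak2 fell by 2.48, Ptpn2 by 2.28, the kinase Tbk1 by 2.17, Tlr7 by 2.02 and Tlr8 by 1.77. Irf1 at -0.08 (SE 0.47, adjusted p = 0.91), Ifnar1 at -0.46 (SE 0.19, adjusted p = 0.117) and Ifnar2 at 0.23 (SE 0.21, adjusted p = 0.415) were not called. Ifnb1 had 22 counts in HFD library 212 and 0 in every other SVC library, and Ifng had 30 and 8 counts in HFD, 4, 0 and 1 in SW and 1 in LFD. Neither was called (adjusted p = 0.155 and 0.166), and 1 library carries the Ifnb1 value. T and NK cell markers had no gene called among 10 tested, with 1 at an unadjusted p under 0.05, and macrophage markers had 1 of 11.

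Between fractions, members were called in both directions in both diets compared. In HFD, 8 were higher and 7 lower in adipocytes than in SVC, where 29.1% of all 17441 genes were called, and without SVC HFD library 411 only 5 were called. In SW, 21 were higher and 9 lower, where 32.8% and 35.6% of all genes were, 68.4% in all, with a median log2 difference of 0.74 over the members and -0.09 over all genes. All 3 transcription factors and 4 of 5 OAS genes were lower in adipocytes in SW, with Oas3 at -2.36 (SE 0.45, adjusted p = 0.000451), Oas1a at -2.03 (SE 0.37, adjusted p = 0.000292) and Irf7 at -1.52 (SE 0.33, adjusted p = 0.0011). All IFIT and PARP9-DTX3L genes were higher, with Parp9 at 2.75 (SE 0.20, adjusted p = 2.17e-07), as were Ifi44 at 4.23 (SE 0.40, adjusted p = 1.35e-06), Rsad2 at 2.93 and Gbp3 at 2.89. Ifi44 had 1, 5 and 3 counts in the SVC SW libraries, so the size of its difference depends on the prior count. The other sets were mixed or partly called: 3 of 5 sensors were higher and 1 lower, and 2 of 4 genes of ISG15 conjugation were higher and 1 lower. With the correction for GC content 17 members were higher and 7 lower. Stat2 at -0.04, Irf7 at -0.55, Ifit1 at 0.46 and Ifit2 at 0.76 then lost the call, as did Usp18, Gbp2 and Samd9l, and Ddx58 and Irgm1 changed sign. The call of Stat2 was also lost when any of 4 libraries was left out. In HFD, Parp9 at 1.10, Ifi27 at 1.10 and Eif2ak2 at 0.90 were higher in adipocytes under every alternative tried. The 2 fractions were deposited as separate tables, and these contrasts come from 1 fit with shared scaling. They moved with GC content as well: over all genes in SW the median was 1.54 in the lowest of 4 equal groups by GC content and -1.24 in the highest.

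The change from HFD to SW itself differed between the fractions for 11 members, where 27.1% of all genes differed. In all 11 the change was more positive in adipocytes, while 15.7% of all genes were more positive and 11.4% more negative. These were Ifit1, Herc6, Trim25, Ifih1, Eif2ak2, Rsad2, Samd9l, Parp9, Parp14, Gbp3 and Ifi44, from 1.21 (Trim25, SE 0.37, adjusted p = 0.0264) to 2.80 (Ifi44, SE 0.53, adjusted p = 0.00308). The size for Ifi44 depends on the prior count, as its SVC SW libraries had 1, 5 and 3 counts. Of these 11, Ifit1 and Gbp3 rose in adipocytes, by 0.71 and 0.91, and Eif2ak2 fell by 0.54. Gbp3 had SVC values of 15.5 and 9.66 CPM in HFD and 3.61, 3.51 and 6.79 in SW. Without SVC HFD library 411 the count was 20, with 15 more positive and 5 more negative, where the 1 SVC HFD library left is assumed to vary like the other groups. With the correction for GC content 7 differed: Gbp3, Ifi44, Rsad2, Parp9 and Trim25 kept the call, and Bst2 at 1.55 and Ifi27 at 0.94 gained it. The call of Trim25 was lost when any of 4 libraries was left out.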

How the data were processed

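PolyA RNA of the adipocyte and stromal vascular fractions was sequenced, and the authors deposited 1 table of estimated counts per gene for each fraction. The submitters' notes name Bowtie2, RSEM, limma and mm9, and versions and strand settings are not given in the sources used here. The labels hold 26 records of 18 libraries, of which 8 had 2 runs, and 15 libraries were used. A further 3 value columns of the SVC table were not used because their names matched no group. Titles of the SW samples name the low fat diet alone, and the treatment label, which gives both diets, was followed. Sample titles also mark each run as paired-end or single, and the mix differed by group. All SW adipocyte libraries were paired-end only, while some LFD and HFD ones had both types. All SW SVC libraries had both types, while some LFD and HFD ones had single runs only. No label ties a run to a column, and the part of run type was not tested. The column numbers that name libraries here (404 and so on) come from the table headers.

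Estimated counts were rounded and fitted by fraction with edgeR 4.0.16 in R 4.3.3: a filter on low counts with a minimum count of 10, TMM factors, robust quasi-likelihood tests, and Benjamini-Hochberg adjustment over all genes at 0.05. Contrasts between fractions came from 1 fit of all 15 libraries. Alternatives were other filters and factors, DESeq2 1.42.0, limma-voom (limma 3.58.1), fewer groups, no mitochondrial or hemoglobin genes, and each library left out. Corrections for GC content and transcript length (longest GENCODE transcript, 37607 of 39017 genes matched) were added after seeing the data. Summaries used pandas 2.3.3 with numpy 2.4.6 under Python 3.11.15, and figures matplotlib 3.10.9. Tested on simulated data with 200 changed genes, the adipocyte HFD against LFD fit recovered 87% of 2-fold and 96% of 4-fold changes over 14303 genes, and the SVC SW against HFD fit recovered 0% and 32% over 15714 genes. Of the calls in the simulated data, 8.04% were false in the adipocyte fit and 5.88% in the SVC fit, both above the threshold of 0.05. The real comparisons called 7448 and 2849 genes, so the simulated shares need not hold for them. The chi-square per degree of freedom between replicate libraries was at least 13.7, so no library was a copy of another. It was highest, at 407.7, between SVC HFD libraries 212 and 411. Adipocyte SW library 407 differed from libraries 408 and 409 by 96.8 and 87.0, while those differed from each other by 13.7. Intervals and floors cover counting error only.

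The 38 members and all gene lists were chosen with earlier results of these data known. In each role, values in every library are given for the 2 members with the highest mean CPM and the 2 with the largest called fold change between diets, and other members by mean, range or fold. Genes of the pathway lists are named where called, at most 5 per list and comparison by size, and Irf1, Ifnar1, Ifnar2, Ifnb1 and Ifng always. Some genes of these lists are not reported here. Cxcl9 values by library were added after their values were seen. Genes with near-identical copies, such as Oas1a, Ifit and Gbp genes, share reads that RSEM divides by estimate.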

Additional observations from a re-analysis of the deposited data

Results flagged for a closer look

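For 11 members adipocytes and SVC differed in how far the switch from HFD to SW moved the gene. The test was of the difference itself (edgeR's quasi-likelihood test on both fractions). Of all 17441 genes tested, 27.1% were called by the same test, 15.7% more positive in adipocytes and 11.4% more negative. The count of 11 alone therefore does not set the members apart from all genes. The log2 change in adipocytes minus that in SVC was 1.57 for Ifit1, 1.78 for Herc6 and 1.21 for Trim25. It was 1.70 for Ifih1, 1.34 for Eif2ak2 and 2.01 for Rsad2. Samd9l differed by 1.74, Parp9 by 1.66, Parp14 by 1.47, Gbp3 by 2.26 and Ifi44 by 2.80. The Ifi44 value rests on 1, 5 and 3 counts in the SVC SW libraries. Over all genes the median of this difference moved with GC content, from 1.13 in the lowest of 4 equal groups to -0.60 in the highest, and the part of GC content in these values was tested only by the correction for it. With that correction Gbp3, Ifi44, Rsad2, Parp9 and Trim25 kept the call, the other 6 lost it, and Bst2 and Ifi27, outside the 11, gained it. The call of Trim25 was lost when any of 4 libraries was left out and when only the groups compared were fitted.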

How the results depend on the processing

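The count of members called in adipocytes between HFD and LFD stayed between 19 and 25 when 1 library was left out and between 22 and 26 under the other alternatives, beside 23. In SW against HFD, leaving out 1 library gave 6 to 15 in place of 12, with 7 without HFD library 401 and 6 without 403. In SW against LFD it gave 4 to 11 in place of 6, with 11 without SW library 409. The correction for length gave 8 there, 4 higher and 4 lower, in place of 4 and 2. For HFD and SW together against LFD it gave 8 to 22 in place of 19, with 8 without LFD library 405. In SVC it gave 0 to 17 in place of 9, limma-voom gave 5 and the GC correction 0. Between fractions it gave 5 to 18 in place of 15 in HFD and 28 to 30 in place of 30 in SW. The difference of the change between fractions gave 9 to 20 in place of 11, and 7 with the GC correction. The causes were not tested, and the share of all genes called in each of these fits is not given beside the counts. A moved count is therefore not a result about the members alone. Of 2659 values of called members under the alternatives, 2420 kept the call, 237 lost it and 2 reversed: with the GC correction, Ddx58 at -0.12 and Irgm1 at -0.22 between fractions in SW. Of 3634 values of members not called, 112 gained the call. Upper-quartile factors moved the median of all genes in HFD against LFD to -0.12 from -0.03. Both corrections were chosen after seeing the data. No paired analysis was possible because the labels give the libraries no number that the columns carry. Depth limits Ifnb1, Ifng and, in SVC, Ifi44.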
